A study of Mus musculus with 8 samples.

Results

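Sox and T-box genes encode 2 families of transcription factors that direct the fates of somatic cells in the embryo. The genes described here were chosen by name: all autosomal Sox and T-box genes other than Sox2 and Sox9, 32 genes in all, of which 31 were in the deposited tables (15 Sox and 16 T-box genes, of 20368 genes on chromosomes 1 to 19). Sox1 was not analysed here. The rule used gene names and no measured value, but it was set with earlier results of these data known.

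Both families are named after their DNA-binding domains. Sox proteins bind DNA through an HMG box and bend it, and they fall into lettered groups with related tasks, among them SoxB2 in neurons, SoxE in the neural crest and SoxF in endothelium and endoderm. T-box proteins share the T domain, first described in Brachyury, and act in gastrulation, in heart and limb formation and in the cortex. H3K27me3 is the repressive histone mark that Polycomb repressive complex 2 places over developmental genes that a cell does not use. Primordial germ cells (PGCs) are the cells of the early embryo from which eggs and sperm descend, and they are known to keep such somatic genes off.

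The series used CUT&RUN, in which an antibody tethers a nuclease to chromatin and the cut fragments are sequenced, on PGCs sorted from pooled embryos. Each of the 5 libraries with a table stood alone in its group. The H3K27me3 libraries came from females at E12.5 and at E11.5, and the libraries with IgG, a control antibody without a target, were made from male embryos (E11.5) and from female embryos (E12.5 and E13.5). All animals were B6 x Cast hybrids and carried Oct4-eGFP+/-, a reporter driven by Oct4 sequences that marks germ cells. The females were Xist KO/+ and the males Xist KO/Y, so every library came from animals with an Xist knockout allele, and no wild type was included. The E11.5 control therefore differed in sex from its H3K27me3 library. The labels list 3 more samples as second replicates of the H3K27me3 groups, which were not analysed here. With 1 library per group there was no spread between replicates, so levels were not tested between conditions. The tests of allele shares below compare the reads of single libraries and not the conditions.

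The tables held reads that could be assigned to 1 of both parental alleles, counted per gene. Autosomal reads numbered 5020062 in the H3K27me3 E12.5 library and 2356356 in the H3K27me3 E11.5 library, against 1357583, 1515532 and 5705401 in the IgG libraries at E11.5, E12.5 and E13.5. Levels below are reads of both alleles per 1000000 autosomal reads (CPM). The Sox and T-box genes together took 0.295% of autosomal reads with H3K27me3 at E12.5 and 0.305% at E11.5. With IgG they took 0.218%, 0.207% and 0.219% at the 3 stages. Much of this came from the long genes Sox5 and Sox6, with 3998 and 1641 of 14816 member reads in H3K27me3 E12.5. In IgG E12.5 they had 1588 and 566 of 3133. More cells with the mark and more mark per cell cannot be told apart in such pools. Whether the sorted cells were PGCs could not be checked, because no RNA was measured.

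The promoters of the members at both ends of the range are printed here because the mark differed most between them: Tbr1 and Eomes, which stood highest over IgG at E12.5 among the members with 1 promoter in the table, and Sox13 and Tbx4, which stood lowest. Each line holds the 250 bases before the transcription start listed for the gene in RefSeq's GRCm38.p6 promoter table, 5′ to 3′ on the gene's own strand. CG dinucleotides, the sites of DNA methylation, are in capitals. The regions are chr2:61804203-61804452 (plus strand), chr9:118477939-118478188 (plus), chr1:133424213-133424462 (minus) and chr11:85896515-85896764 (plus). The RefSeq gene spans of Tbr1 and Tbx4 begin further upstream, at 61802863 and 85886367, and that of Sox13 begins at 133424459. The Tbr1, Sox13 and Tbx4 windows thus lie wholly or almost wholly inside the gene span.
Tbr1: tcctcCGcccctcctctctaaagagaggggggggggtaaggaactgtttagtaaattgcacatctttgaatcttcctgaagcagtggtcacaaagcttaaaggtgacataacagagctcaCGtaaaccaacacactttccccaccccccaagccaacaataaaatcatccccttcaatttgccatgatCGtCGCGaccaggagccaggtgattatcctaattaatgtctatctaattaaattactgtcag
Eomes: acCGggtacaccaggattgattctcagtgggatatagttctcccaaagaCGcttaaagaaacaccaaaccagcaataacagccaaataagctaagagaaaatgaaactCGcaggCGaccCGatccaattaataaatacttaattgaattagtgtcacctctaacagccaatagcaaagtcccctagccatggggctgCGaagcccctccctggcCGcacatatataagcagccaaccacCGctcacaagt
Sox13: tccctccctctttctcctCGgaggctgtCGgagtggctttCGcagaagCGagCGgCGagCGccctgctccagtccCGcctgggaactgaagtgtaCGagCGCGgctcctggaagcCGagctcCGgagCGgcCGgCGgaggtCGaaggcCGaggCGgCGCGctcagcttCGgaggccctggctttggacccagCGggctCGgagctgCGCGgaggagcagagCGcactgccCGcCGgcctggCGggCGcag
Tbx4: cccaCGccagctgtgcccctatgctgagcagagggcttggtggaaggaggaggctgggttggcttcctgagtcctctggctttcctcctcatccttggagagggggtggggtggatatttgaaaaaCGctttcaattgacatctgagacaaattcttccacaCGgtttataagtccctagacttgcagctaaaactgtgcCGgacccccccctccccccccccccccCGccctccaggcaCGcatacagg

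The Tbr1 window held 5 CG dinucleotides and the Eomes window 8, against 31 in Sox13 and 6 in Tbx4. Of 31396 windows of this length around mouse gene starts, 92.4% held at least 1 and the median was 6. At least as many as in Tbr1 stood in 56.0% of windows, as in Eomes in 43.5%, as in Tbx4 in 50.8% and as in Sox13 in 5.36%. Eomes and Tbx4, at opposite ends in the mark, thus had similar counts.

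Most of the genes carried more reads with H3K27me3 than with IgG at E12.5, the stage where both libraries were from females. A gene was called when its level differed at least 2-fold, on the log2(level + 1) scale, among genes with at least 20 reads in both libraries together. Of the 27 Sox and T-box genes that passed this minimum, 15 were higher, where 15.2% of the 16526 autosomal genes tested were higher. There were 2 lower genes, Sox13 and Tbx4, against 29.5% of all genes, and 10 were neither. The median log2 ratio was 1.79, against -0.54 over all genes tested, and with no minimum of reads it was 0.85 over all 31 members, against -0.37. All 15 higher genes were also past 3-fold, and over this control no member lay between 0.80 (Tbx1) and 1.73 (Tbx20). That gap depended on the control: over IgG E13.5, Sox8 (0.94) and Tbx20 (1.27) lay within it. After centring on the median of all genes, 18 members were higher and 0 lower, and the shares of all genes became 25.5% higher and 4.71% lower.

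**Figure D1:**
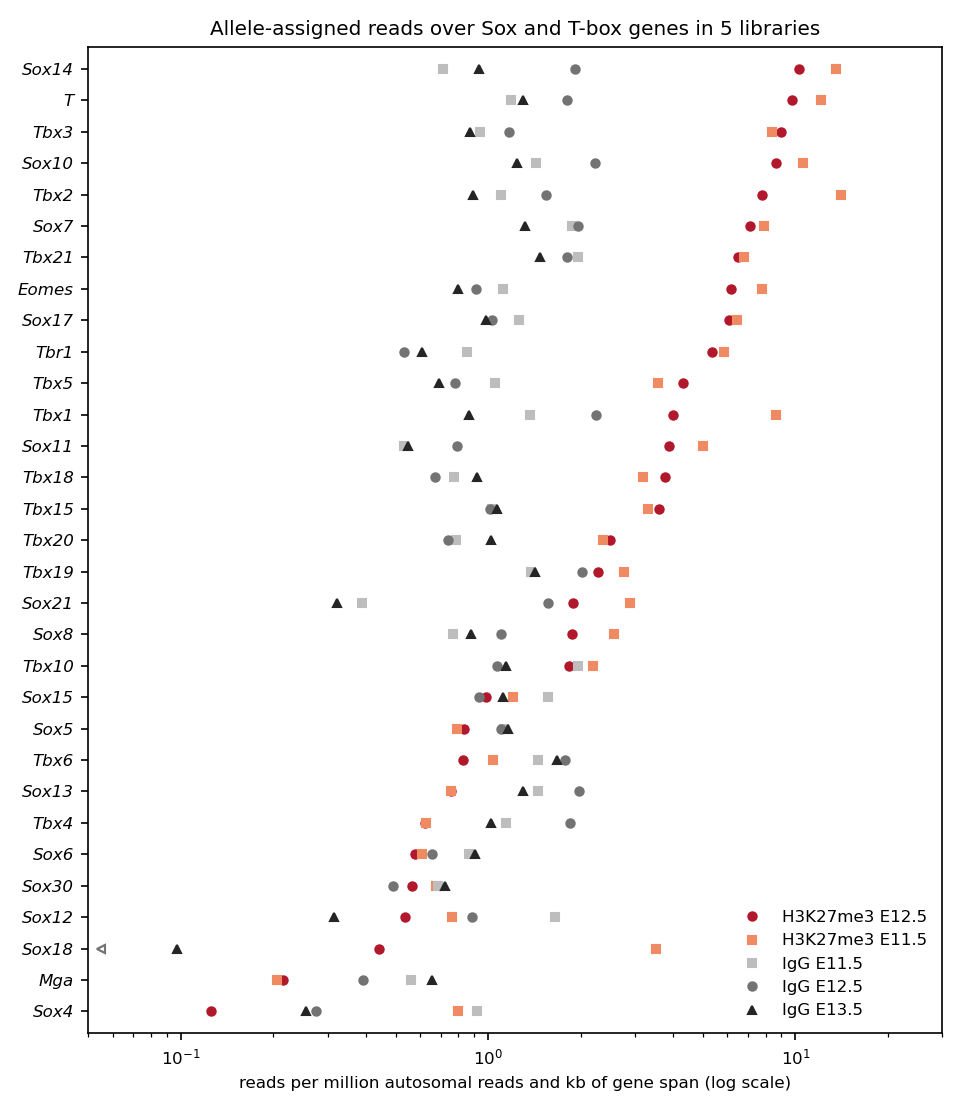
CPM per kb of gene length (log axis) for the 31 genes in the 5 libraries, ordered by the H3K27me3 E12.5 level; open triangles at the left edge mark levels of 0. Sox14, T and Tbx3 have the highest H3K27me3 E12.5 levels, between 8.96 and 10.3, while most IgG levels lie near 1.

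All 3 genes of the Tbr1 subfamily were higher. Tbr1, which specifies deep-layer neurons of the cortex, had 300 and 154 reads in H3K27me3 at E12.5 and E11.5, against 13, 9 and 39 in IgG at E11.5, E12.5 and E13.5. At E12.5 that was 59.8 against 5.94 CPM, a ratio of 10.1 (95% exact interval 5.23 to 22.2, counting error only), and a log2 ratio of 3.13, rank 36 of the 16526 genes. Eomes, needed for mesoderm and trophoblast and for intermediate neural progenitors, had 246 and 145 reads in H3K27me3, against 12, 11 and 36 in IgG. Its E12.5 level was 49.0 against 7.26 CPM, a ratio of 6.75 (3.71 to 13.7). In both genes each H3K27me3 library exceeded every IgG library in CPM. Tbx21, the T-bet gene of type 1 helper T cells, had a log2 ratio of 1.82.

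The Tbx2 subfamily, which patterns limbs and heart, held 3 higher genes and 1 lower gene at E12.5. Tbx3, a repressor in limb, mammary gland and heart conduction system that also acts in pluripotent cells, had 632 and 278 reads in H3K27me3 at E12.5 and E11.5, against 18, 25 and 70 in the 3 IgG libraries. Its level at E12.5 was 126 against 16.5 CPM, a ratio of 7.63 (5.12 to 11.9). Tbx5, the forelimb and heart gene, had 1135 and 441 reads in H3K27me3, against 75, 62 and 207 in IgG, with a ratio of 5.53 at E12.5 (4.28 to 7.26). Tbx2, another repressor of heart and limb, had a log2 ratio of 2.26.

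Tbx4, the hindlimb gene, went the other way. It had 93 and 44 reads in H3K27me3 at E12.5 and E11.5, against 46, 83 and 172 in IgG at E11.5, E12.5 and E13.5. The E12.5 levels were 18.5 against 54.8 CPM, a ratio of 0.338 (0.249 to 0.460) and the lowest log2 ratio of all members, -1.51. The IgG E12.5 level stood above the other two IgG levels, 33.9 and 30.1 CPM. Against IgG E13.5 the log2 ratio was -0.67, and after centring on all genes it was -0.97, so Tbx4 was not called lower under either.

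Members that neighbour each other differed in 1 pair and not in another. Tbx2 (chr11:85832615-85841948) and Tbx4 (chr11:85886367-85916097) are 44.4 kb apart on GRCm38.p6 with 0 protein-coding genes between them, and their log2 ratios at E12.5 were 2.26 and -1.51. Tbx3 (chr5:119670534-119684724) and Tbx5 (chr5:119796514-119885220) are 112 kb apart, also with 0 protein-coding genes between them, and both were higher, at 2.86 and 2.44.

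Of the Brachyury subfamily, T (Brachyury itself, the gene of the primitive streak and notochord) had 395 reads in H3K27me3 E12.5 and 22 in IgG E12.5, a log2 ratio of 2.36. Tbx19, the pituitary gene that turns on Pomc, stood at 0.17, and the interval of its ratio, 0.862 to 1.49, includes 1. In the Tbx1 subfamily 3 of 5 genes were higher. These were Tbx18, of the epicardium and ureter, at 2.42, Tbx15, of skeletal and skin patterning, at 1.82, and Tbx20, of the heart, at 1.73. Tbx1, the pharyngeal arch gene, stood at 0.80 (ratio 1.77, 1.22 to 2.65). Tbx10, a relative of Tbx1, stood at 0.69 (ratio 1.70, 0.888 to 3.58).

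Neither gene of the Tbx6 subfamily was higher. Tbx6, which makes paraxial mesoderm instead of neural tissue, had only 17 and 10 reads in H3K27me3 at E12.5 and E11.5, against 8, 11 and 39 in IgG. Its ratio at E12.5, 0.467 (0.206 to 1.10), was not distinguishable from 1 at this depth. Mga, which pairs a T-box with a Max-binding domain and is part of a non-canonical Polycomb complex that silences germ cell genes, had 78 and 35 reads in H3K27me3, against 55, 43 and 271 in IgG. Its E12.5 ratio was 0.548 (0.373 to 0.814), a log2 ratio of -0.83 that did not reach 2-fold and was -0.29 after centring. Per kb, Mga had the lowest H3K27me3 E12.5 level of the T-box genes, 0.215 CPM per kb, where T had 9.75. Its IgG levels were low as well, at 0.560, 0.392 and 0.656 CPM per kb at E11.5, E12.5 and E13.5. T had 1.19, 1.80 and 1.30 there.

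Among the Sox genes 5 of 11 with enough reads were higher, with a median of 0.67, against 10 of 16 T-box genes with a median of 1.82. Both SoxF genes that passed, Sox17, of definitive endoderm and arterial endothelium, and Sox7, of endothelium and primitive endoderm, were higher. Sox17 had 196 reads in H3K27me3 E12.5 and 10 in IgG E12.5, or 39.0 against 6.60 CPM, a ratio of 5.92. In humans SOX17 is known to specify PGCs. The log2 ratio of Sox7 was 1.79. Sox18, the lymphatic endothelium gene, was under the minimum, with 4 reads against 0 at E12.5.

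Single genes of other Sox groups were also higher. They were Sox14 (2.17), a SoxB2 gene of interneurons, Sox11 (2.13), the SoxC gene of immature neurons, and Sox10 (1.91), the SoxE gene of neural crest, glia and pigment cells. Their partners were nearer to IgG. Sox21, the other SoxB2 gene, stood at 0.24 (ratio 1.21, 0.571 to 2.85) and Sox8, the other SoxE gene, which acts with Sox9 in the testis, at 0.67 (1.70, 0.792 to 4.17). Their intervals include 1. The SoxC genes Sox4 and Sox12 and the SoxG gene Sox15, a factor of myoblasts, had too few reads, between 3 and 12 in H3K27me3 E12.5. Sox15 also overlaps Mpdu1, so their reads may not be separable.

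The SoxD genes were not higher. These are Sox5 and Sox6, which act together in cartilage and oligodendrocytes, and Sox13, known from gamma delta T cells. Sox13 had 160 and 75 reads in H3K27me3 at E12.5 and E11.5, against 83, 126 and 311 in IgG, and its E12.5 ratio was 0.383 (0.302 to 0.488). Its log2 ratio of -1.36 became -0.81 after centring and -0.76 against IgG E13.5, so it was not called lower under either. Sox5 stood at -0.40 and Sox6 at -0.19, values that turned to 0.15 and 0.35 after centring. Sox30, the SoxH gene needed for spermatid formation, stood at 0.20.

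**Figure D2:**
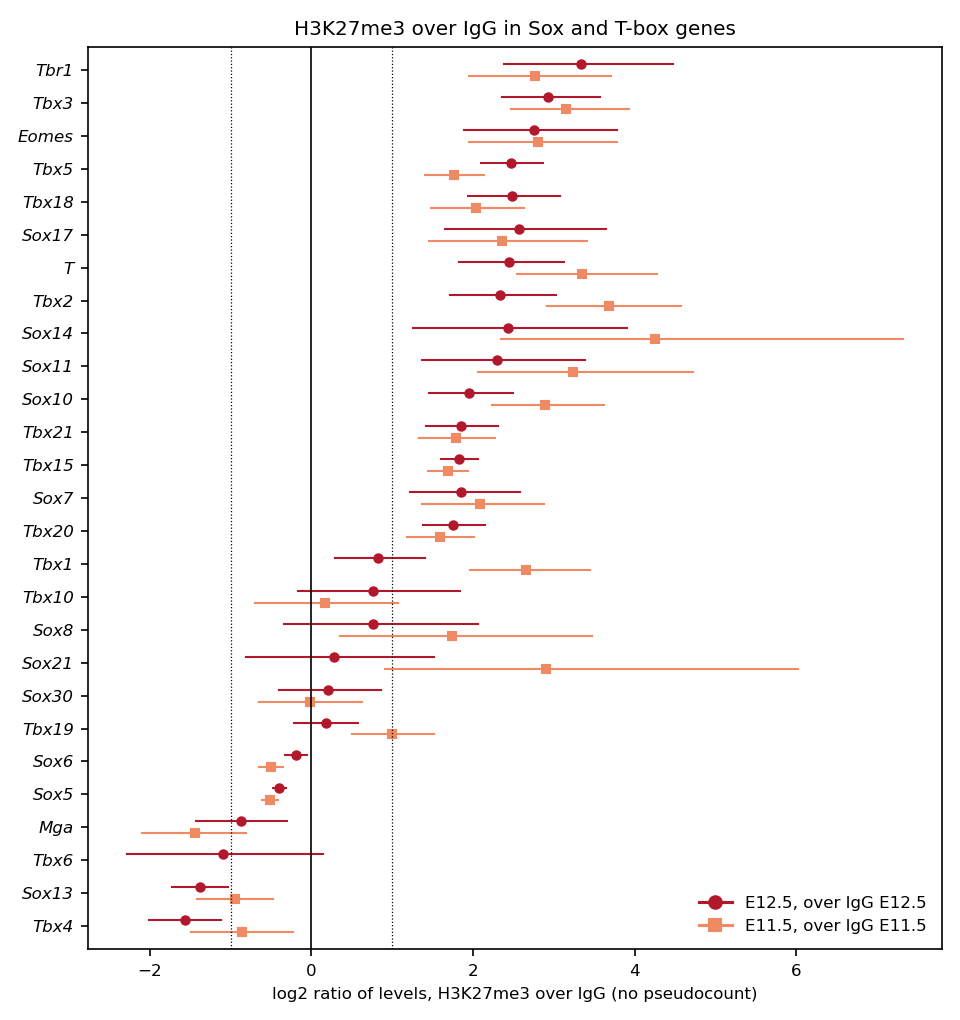
Log2 ratio of levels with H3K27me3 over IgG, without a pseudocount, at E12.5 (circles) and E11.5 (squares) for the 27 genes tested at E12.5; lines are 95% exact intervals that cover counting error only, and dotted lines mark 2-fold. The intervals of the 15 genes called higher at E12.5 lie above 1 at both stages, and Tbx4, with a ratio of 0.338, is at the bottom.

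At E11.5 the same genes stood out, although the IgG library was shallower and from males. Of 26 genes that passed the minimum, 18 were at least 2-fold higher, against 17.2% of all 15050 genes tested, and 1 was lower, against 29.7%. The median was 1.87, against -0.49 over all genes. After centring, 19 were higher and 0 lower, against 24.8% and 7.38% of all genes. The 18 comprised the 15 genes higher at E12.5 plus Sox21 (2.28), Sox8 (1.51) and Tbx1 (2.57). Sox21 rested on 26 reads against 2 in IgG (ratio interval 1.88 to 65.1) and Sox8 on 29 against 5 (1.28 to 11.1). With a minimum of 50 reads neither was tested. Sox8 was also not higher with a pseudocount of 5 or at a fold of 3. Over genes tested at both stages, 15 of 26 members (57.7%) were higher at both, against 11.9% of 15025 genes. Past 2-fold in opposite directions were 0 members, but also only 8 of the 15025 genes, so this count does not set the members apart.

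The order of the genes shifted between stages. Tbx2 and Sox14 had the highest log2 ratios at E11.5, 3.56 and 3.55. Tbx2 had 132 against 10.3 CPM, a ratio of 12.8 (7.54 to 23.8). The Sox14 ratio without a pseudocount was above that of Tbx2 but rested on 2 IgG reads, and its interval ran from 5.06 to 160. T stood at 3.22, Tbx3 at 3.06 and Sox11 at 2.97. Mga was the lower gene, at -1.39 (ratio 0.367, 0.233 to 0.570), and became -0.90 after centring. Tbx4 (-0.83) and Sox13 (-0.92) stayed within 2-fold at this stage. Sox18, under the minimum, had 15 reads against 0 in IgG, at least 2.88-fold higher when the IgG library is set at a floor of 3 reads.

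At E11.5 7 of 11 Sox and 11 of 15 T-box genes were higher. The Sox median then lay above the T-box median of 1.76, the reverse of E12.5. Few IgG reads lay behind some Sox ratios. Sox14, Sox21 and Sox8 had 2, 2 and 5 at E11.5 and 6, 9 and 8 at E12.5. Their H3K27me3 log2 ratios of E12.5 over E11.5 were -0.38, -0.56 and -0.42, none called. Over IgG E13.5 the Sox and T-box medians were 1.41 and 2.03 at E12.5 and 2.43 and 1.95 at E11.5. The order also reversed there, with 12 Sox genes tested at E12.5 and 11 at E11.5. A difference between the families was not tested.

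The deeper IgG library, from E13.5 females, gave a similar count. Against it 17 of 28 members were higher at E12.5, where 15.9% of all genes were higher, and 18 of 27 at E11.5, where 16.8% of all genes were. Mga was the 1 lower gene against this control in both, at -1.55 for E12.5 and -1.61 for E11.5, where 24.2% and 27.2% of all genes were lower. The members called higher at E12.5 against this control and not against IgG E12.5 were Sox21, with log2 ratios of 1.88 and 0.24, and Tbx1, with 2.07 and 0.80. The H3K27me3 libraries share this control, so the counts are not independent of each other.

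IgG libraries set against each other show how far the genes vary without the mark. For IgG E13.5 over IgG E12.5, 0 of 25 members were higher, against 3.72% of all genes, and 1 was lower, against 5.62%. The median was -0.18, against -0.12 over all genes. The lower gene was Tbx1, at -1.27, from 48 reads at E13.5 and 33 at E12.5, or 8.41 against 21.8 CPM.

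Longer genes tended to have lower ratios, though the correlation was weak at E12.5 and was not tested. Of the 16 members under 20 kb tested at E12.5, 11 were higher, with a median of 2.02, against 22.4% of all genes of that length with a median of -0.24. Between 20 and 100 kb 3 of 8 were higher and 2 lower (median 0.18), against 9.75% higher of all such genes. Of the 3 longest, Tbx15 was higher and Sox5 and Sox6 were not. At E11.5 14 of 15 members under 20 kb were higher, against 28.1% of all. Over members the Spearman correlation of length and ratio was -0.25 at E12.5 (n = 27) and -0.61 at E11.5 (n = 26), against -0.16 and -0.31 over all genes tested. The points share their libraries, and longer genes hold more background reads.

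**Figure D3:**
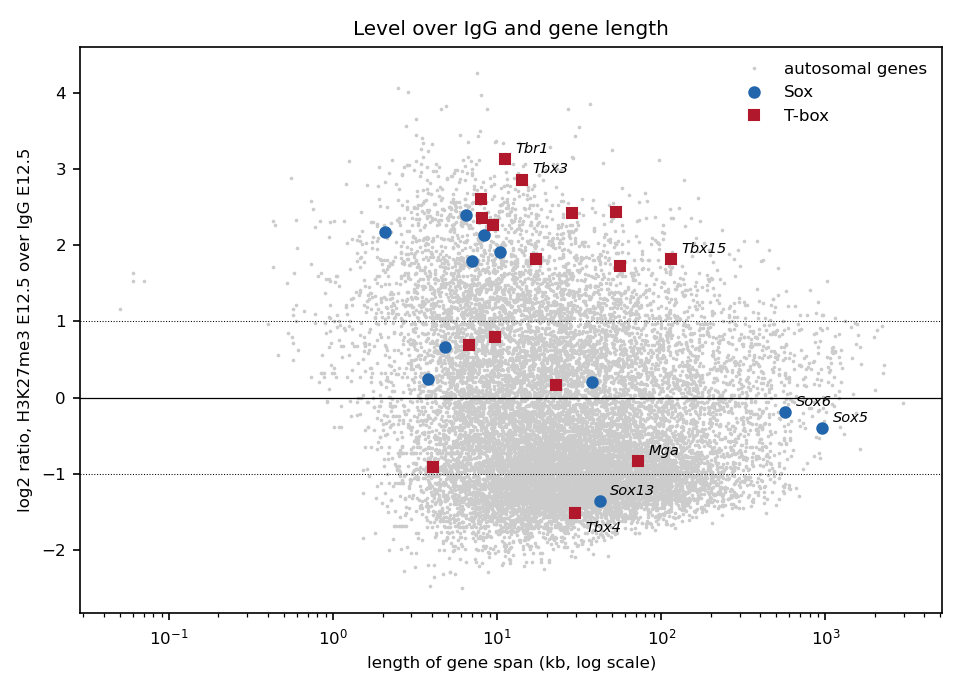
Log2 ratio of H3K27me3 E12.5 over IgG E12.5 against gene length in kb (log axis) for 16526 autosomal genes (grey), Sox genes (blue circles) and T-box genes (red squares); dotted lines mark 2-fold. The 11 higher members under 20 kb sit at the upper left, and Sox13 and Tbx4 lie below the lower dotted line.

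The CG count of the promoter showed no such order among the members for which it was known. Of the 31 genes 23 had a promoter in the RefSeq table. The 8 without one were Sox18, under the minimum, and Sox7, Sox10, Sox17, Tbx2, Tbx3, Tbx5 and Tbx15, all higher at E12.5. Much of the high end was therefore left out. The 18 genes with 1 promoter and a tested ratio gave a Spearman correlation of CG count with the E12.5 ratio of -0.05. Over 10598 genes it was -0.42. Promoters with many CG dinucleotides occurred at both ends, such as Sox14 with 23 and Sox13 with 31.

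Between stages the H3K27me3 levels were close. Of 28 members tested for H3K27me3 E12.5 over E11.5, 0 were at least 2-fold higher, against 0.756% of all 16526 genes, and 1 was lower, against 0.787%. The median log2 ratio was -0.20, against 0.01 over all genes, and 20 of 28 members (71.4%) were below 0, against 48.5% of all genes. Of the lists described further below, 23 of 23 mesoderm, 13 of 15 neural and neural crest and 9 of 9 somatic gonad genes were below 0. For housekeeping, germ cell, and blood and endothelium genes the counts were 9 of 16, 5 of 8 and 4 of 8. The lean was thus not particular to the members. Under 20 kb the medians were -0.31 for members and -0.06 for all genes. The highest ratio among members was that of Tbx5, 0.27 on the log2 scale.

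The lower gene was Tbx1 (chr16:18580979-18590671). It had 194 reads in H3K27me3 E12.5 and 197 in H3K27me3 E11.5, although the E12.5 library held more autosomal reads, which gave 38.6 against 83.6 CPM and a ratio of 0.462 (0.377 to 0.566). In IgG it had 18, 33 and 48 reads at E11.5, E12.5 and E13.5, or 13.3, 21.8 and 8.41 CPM. The log2 ratio was -0.88 on the first allele alone and -1.22 on the second. Tbx2 came next, at -0.84, with 73.3 against 132 CPM (ratio 0.554, 0.475 to 0.646), and its IgG levels were 10.3, 14.5 and 8.41 CPM. Tbx3, its close relative, did not share this, at 0.09, with a ratio of 1.07 (0.925 to 1.23). Without a second library per stage, differences between stages and between libraries cannot be told apart.

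**Figure D4:**
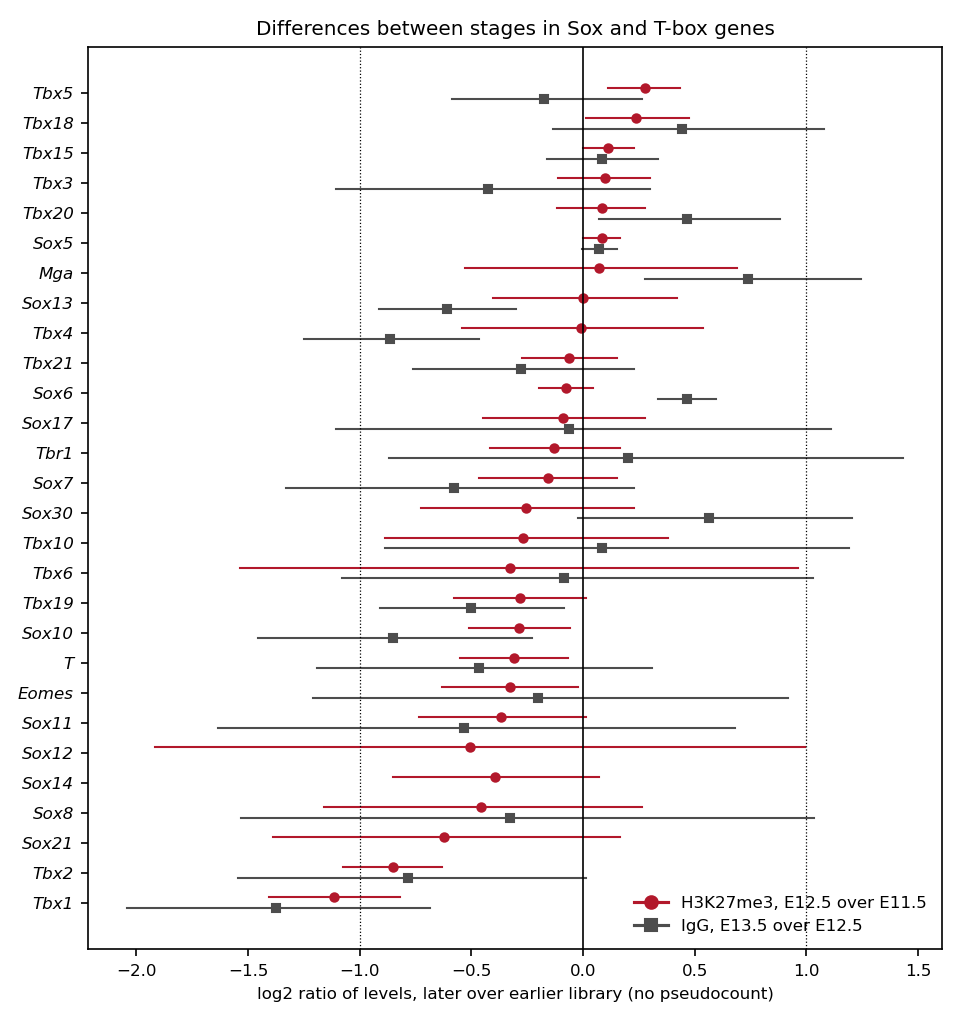
Log2 ratio of levels, without a pseudocount, for H3K27me3 E12.5 over E11.5 (red circles) and IgG E13.5 over E12.5 (grey squares); lines are 95% exact intervals that cover counting error only, and dotted lines mark 2-fold. Genes with fewer than 20 reads in both libraries together are not drawn; among those drawn, Tbx1 and Tbx2 have the lowest H3K27me3 ratios, 0.462 and 0.554, and Tbx1 has the lowest IgG ratio, 0.386.

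Reads with H3K27me3 exceeded those with IgG on each allele taken alone. At E12.5 15 of 25 members were higher on the first allele and 16 of 26 on the second, against 16.5% and 16.2% of all genes. At E11.5 the counts were 18 of 24 and 16 of 24, against 19.3% and 19.2%.

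The division of reads between the alleles was near even for most members. The second-allele share is the percent of a gene's reads on the second allele; which strain that is was not stated. Over 28 genes with at least 10 reads the median share was 51.0% in H3K27me3 E12.5 and 48.9% in H3K27me3 E11.5. The share of the members' pooled reads was 50.5% (95% exact interval 49.7 to 51.3) and 50.3% (49.1 to 51.4). At E12.5 Sox5 and Sox6 held 3998 and 1641 of these 14816 reads. Each gene was compared with the library's pooled autosomal share, 50.9% at E12.5 and 51.6% at E11.5, in an exact two-sided binomial test with Benjamini-Hochberg adjustment over all autosomal genes. Such tests compare reads of 1 library and say nothing of the spread between animals. At E12.5 3 of 28 were called, where 17.5% of all genes were, and at E11.5 3 of 28, where 11.7% were.

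Mga was called in every library. Its second-allele share was 91.0% in H3K27me3 E12.5 (82.4 to 96.3, adjusted exact p = 1.97e-12) and 85.7% in H3K27me3 E11.5 (adjusted exact p = 5.18e-04). With IgG it was 87.3%, 88.4% and 84.5% at E11.5, E12.5 and E13.5, so the skew was as large without the mark. Sox6, with 1641 and 813 reads in H3K27me3 at E12.5 and E11.5 and 665, 566 and 2931 in IgG, had a share of 46.5% in H3K27me3 E12.5 (adjusted exact p = 0.00288). In H3K27me3 E11.5 it was 49.9% and was not called. With IgG it was 43.2% and 44.3% at E11.5 and E12.5, both called, and 49.2% at E13.5, the deepest library, where it was not called.

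Of the other members called with H3K27me3, Tbx19, with 261 and 149 reads in H3K27me3 at E12.5 and E11.5 and 43, 70 and 186 in IgG, had a share of 39.8% in H3K27me3 E12.5 (adjusted exact p = 0.00359). Its H3K27me3 E11.5 share was 43.0% (34.9 to 51.3) and was not called. With IgG the share was 51.2%, 57.1% and 45.7% at E11.5, E12.5 and E13.5, none of them called. Sox7, with 252 and 132 reads in H3K27me3 and 18, 21 and 53 in IgG, had 59.1% at E12.5 (adjusted exact p = 0.0546) and 65.9% at E11.5 (adjusted exact p = 0.0134). Its IgG shares were 66.7%, 38.1% and 56.6%. Tbx1 had 58.2% at E12.5 (adjusted exact p = 0.179) and 64.5% at E11.5 (adjusted exact p = 0.00462), with 33.3%, 60.6% and 47.9% in IgG at E11.5, E12.5 and E13.5. In the IgG libraries 3.66%, 3.46% and 7.87% of all genes were called at E11.5, E12.5 and E13.5. Beside Mga and Sox6, the member called there was Sox5, at 48.3% in IgG E13.5 from 6284 reads, where its 3998 and 1775 H3K27me3 reads gave 50.9% at E12.5 and 48.7% at E11.5.

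Set directly against IgG, no member's share was called. These tests compare the reads of single libraries and say nothing of the spread between animals or of the conditions. In Fisher's exact test of H3K27me3 E12.5 against IgG E12.5, 0 of 23 genes passed adjustment, where 2.35% of all genes did. Unadjusted, 2 genes were under 0.05, Tbx19 (39.8% against 57.1%, adjusted exact p = 0.206) and Tbx20 (53.4% against 38.1%, adjusted exact p = 0.326). For H3K27me3 E11.5 against IgG E11.5, 0 of 22 passed, where 2.17% of all genes did, and 2 were under 0.05 unadjusted, Sox6 and Tbx1. For H3K27me3 E12.5 against E11.5, 0 of 27 passed and 0 were under 0.05 unadjusted, where 0.530% of all genes passed. Against IgG E13.5, 0 of 26 passed adjustment at either stage, where 6.12% and 4.12% of all genes passed at E12.5 and E11.5. Unadjusted, 2 members were under 0.05 at E12.5 and 4 at E11.5. The share of all genes under 0.05 unadjusted was not computed, so the unadjusted counts have no background to be read against. The IgG shares rest on few reads for most of the members, so a moderate difference was not detectable at this depth.

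**Figure D5:**
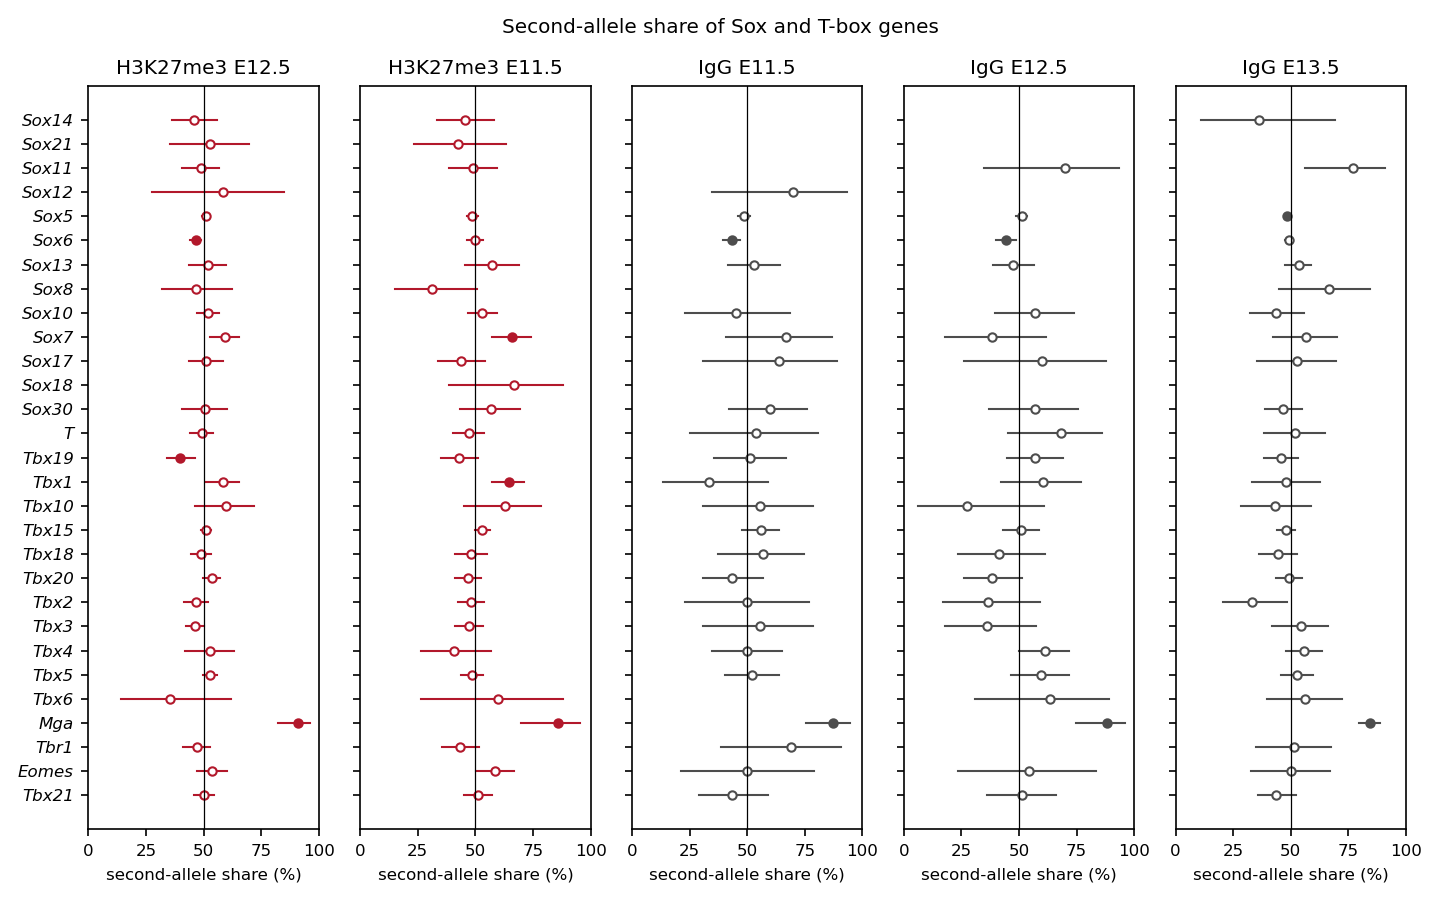
Second-allele share in percent with 95% exact intervals (counting error only) for genes with at least 10 reads in each of the 5 libraries, H3K27me3 in red and IgG in grey; filled points are called by the adjusted binomial test. Mga lies between 84.5% and 91.0% in all 5 libraries, while most other genes scatter around 50%.

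Most genes on lists of partners and targets of these factors were also higher. Of 20 mesoderm partners and targets that passed at E12.5, such as Hes7, Wnt3a and Fgf8, 14 were higher and 1 lower (median 1.71), and at E11.5 18 of 20 were higher and 0 lower (2.37). Of 14 neural and neural crest partners, such as Pax3 and Pax6, 10 were higher and 0 lower at E12.5 (2.03) and 12 higher and 1 lower at E11.5 (2.62). These counts stand beside 15.2% and 17.2% of all genes higher at the same stages. Of a housekeeping list 0 of 17 were higher and 9 lower at E12.5 (-1.02), and 0 of 13 higher and 9 lower at E11.5 (-1.17), beside 29.5% and 29.7% of all genes lower.

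Lists of genes of the cell types a gonad can hold are read against the same shares, 15.2% higher and 29.5% lower of all genes at E12.5 and 17.2% and 29.7% at E11.5. Of 9 genes of the somatic gonad, such as Wt1, Nr5a1 and Foxl2, 8 were higher and 0 lower at E12.5 (median 1.80), and 9 of 9 were higher at E11.5 (2.50). Germ cell genes, such as Ddx4 and Kit, had 0 higher of 8 and 3 lower at E12.5 (-0.98) and 0 higher of 6 and 4 lower at E11.5 (-1.01). Genes of blood and endothelium had 1 of 7 higher and 1 lower at E12.5 (0.77) and 2 of 7 higher and 1 lower at E11.5 (-0.03). Gata4 is in both the mesoderm and the somatic gonad list. The lists measure the mark over these genes and not their expression, and the part of other cell types in the libraries was not tested.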

How the data were processed

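H3K27me3 and IgG CUT&RUN libraries of mouse PGCs were analysed from tables of reads per gene. Per the submitters' processing notes, the authors used Bowtie2 2.4.2, GATK, featureCounts, SAMtools 1.11, Trim Galore 0.6.6, MACS2 2.2.7.1 and deepTools 3.5.1 among other tools, and build mm10. How reads were assigned to alleles and duplicates handled is not given in the sources used here. The deposited values are raw counts of reads on the first and the second allele and the fraction of reads on the second, printed as a percent. Reads not assigned to an allele are not in these tables.

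Levels were scaled to the reads of chromosomes 1 to 19, and log2 ratios used a pseudocount of 1 CPM and a minimum of 20 reads in both libraries together. With 1 library per group no model was fitted. Ratios and their percent of genes past 2-fold were computed over all autosomal genes, with exact binomial intervals (95%) for counting error only, since PCR copies are not independent molecules. Shares needed 10 reads and were tested as stated, with an adjusted p threshold of 0.05. Calculations used Python 3.11.15, pandas 2.3.3, NumPy 2.4.6, SciPy 1.17.1 and Matplotlib 3.10.9 and were tested on simulated data. Coordinates, overlaps and promoters are RefSeq's for GRCm38.p6, matched by symbol for 31 genes. The members, gene lists and tests were chosen with earlier results of these data known. Reads in every library are given for the 4 members with the highest and the 4 with the lowest E12.5 ratio, for members past 2-fold between stages and for members with a called share. Other pseudocounts, minimums, folds, controls, centrings and single alleles were tried.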

Additional observations from a re-analysis of the deposited data

Results flagged for a closer look

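Sox30, the SoxH gene of spermatid formation, stood on opposite sides of IgG at the 2 stages. Its log2 ratio of H3K27me3 over IgG was 0.20 at E12.5, from 107 reads against 28, and -0.02 at E11.5, from 60 reads against 35. The difference between the stages was not tested. The intervals of both ratios, 0.755 to 1.82 at E12.5 and 0.640 to 1.54 at E11.5, include 1, so neither ratio was distinguishable from 1 at this depth.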

How the results depend on the processing

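Of 122 summary values recomputed under other settings, 105 stayed close to the value reported, and 17 moved. A value near 0 could count as close and still change sign. The median of IgG E13.5 over IgG E12.5, -0.18, did so and was 0.02 on the first allele. The counts of higher members over IgG ranged from 15 to 18 at E12.5 and 16 to 19 at E11.5. The members that passed numbered 25 to 31 at E12.5 and 24 to 31 at E11.5. The shares of all genes higher ran from 7.20% to 25.5% at E12.5 and from 10.9% to 24.8% at E11.5. The median at E12.5 was 0.85 with no minimum of reads. The moves below concern counts of at most 3 genes. The 2 lower members at E12.5 became 0 after centring on all genes and 0 at a fold of 3. Against IgG E13.5 and against the summed IgG libraries 1 was lower. The share of all genes lower went from 29.5% to 4.71%, 3.70%, 24.2% and 25.7% under these settings. The 1 lower member at E11.5 became 0 after centring, 0 at a fold of 3 and 2 on the second allele alone. There the share of all genes went from 29.7% to 7.38%, 4.78% and 30.1%. The 1 lower member between the H3K27me3 stages became 3 with no minimum, 0 on the first allele and 0 at a fold of 3. There the share of all genes went from 0.787% to 0.992%, 1.39% and 0.0424%. Between the IgG libraries the 1 lower member became 0 with a pseudocount of 5, 3 with no minimum and 0 on the first allele. It became 2 on the second allele and 0 at a fold of 3. In this order the share of all genes lower went from 5.62% to 1.47%, 5.84%, 6.78%, 6.35% and 0.370%. The 0 higher members became 1 on the first allele, where the share of all genes higher went from 3.72% to 4.83%. The cause of these moves was not tested.

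Of 1007 values of single genes 953 stayed close, 50 moved and 2 reversed. A ratio counted as close when it shifted by no more than its counting interval reached, which is wide for genes with few reads. Ratios within 2-fold were not counted as reversed when their sign changed, as with Sox5 and Sox6 at E12.5 after centring. The reversed ones are share differences of H3K27me3 E12.5 against IgG E12.5 that were not called: with IgG E13.5 as control Tbx1 was at 10.3 points (adjusted exact p = 0.728) and Sox6 at -2.70 points (0.435). The Sox7 share at E12.5, 59.1%, was called with at least 50 reads per gene (adjusted exact p = 0.0425) and against a share of 50% (adjusted exact p = 0.0302). Centring the stage ratios on autosomal genes under 20 kb was chosen after seeing the data and gave a median of -0.14 and again 1 lower member. No paired analysis was possible because each group had 1 library, and no replicate could be left out. Depth limits most the IgG side, where 1 read is worth 0.737 CPM at E11.5 and 0.660 CPM at E12.5.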
